A study of Mus musculus with 16 samples.

Results

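The troponin and tropomyosin genes were followed on heart arrays from mice with fewer functional alleles of MuRF1 (Trim63) and MuRF2 (Trim55), muscle ubiquitin ligases of the sarcomere. The members were all probes whose gene name in the array files is Tnnc1, Tnnc2, Tnni1, Tnni2, Tnni3, Tnnt1, Tnnt2, Tnnt3, Tpm1 or Tpm2. That rule gave 17 probes of 10 genes, out of 41174 probes on the array, and each probe was kept apart. Tpm1 had 3 probes, Tnni1, Tnni3, Tnnt2, Tnnt3 and Tpm2 had 2 each, and Tnnc1, Tnnc2, Tnni2 and Tnnt1 had 1 each. All 17 were among the 16810 probes tested, which needed a heart signal well above background on 4 or more of 16 arrays. The Tnnt2 probe A_52_P430110 passed that filter only through the groups where it was bright, since it was above background on 4 wild type and 3 MuRF1 het MuRF2 null arrays and on no other array.

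Troponin and tropomyosin form the calcium switch of the thin filament. Tropomyosin lies along actin and covers the sites where myosin binds, and the troponin complex moves it: troponin C binds calcium, troponin I holds the switch off at low calcium, and troponin T ties the complex to tropomyosin. Troponin I and troponin T have separate genes for cardiac, slow skeletal and fast skeletal muscle, while troponin C has a fast gene and a gene shared by cardiac and slow muscle. The adult mouse ventricle uses Tnnc1 (the shared gene), Tnni3, Tnnt2 and mainly Tpm1, while Tnni1 is the troponin I of the fetal heart and of slow muscle.

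Each array held heart RNA of 1 biological replicate from mice aged 12 weeks, labelled with Cy5, against a common Cy3 reference made from whole C57BL/6 pups of postnatal day 1. There were 4 groups of 4 arrays: wild type (MuRF1 +/+ MuRF2 +/+), double null (MuRF1 -/- MuRF2 -/-), MuRF1 null MuRF2 het (MuRF1 -/- MuRF2 +/-) and MuRF1 het MuRF2 null (MuRF1 +/- MuRF2 -/-). The labels call the groups strain-matched and the replicates biological; the strain and sex of the heart donors are not given in the sources used here. No group lacks 1 of the genes while keeping both alleles of the other. In whole hearts, fewer cells of a type and less RNA per cell cannot be told apart. Values are log2 ratios of heart over pup, so a ratio compares 1 gene between heart and newborn body and says nothing about the amount of one gene against another.

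The log2 ratio of Trim63 was 2.63 ± 0.09 (SD, n = 4) in wild type hearts, 1.94 ± 0.21 in MuRF1 het MuRF2 null, -0.72 ± 0.27 in double null hearts and -0.64 ± 0.22 in the MuRF1 null MuRF2 het group, the order of the labelled MuRF1 alleles. Arrays differed in brightness with genotype. Between 6037 and 14503 probes were well above background in the heart channel on double null arrays and between 6402 and 15067 on MuRF1 null MuRF2 het arrays, against 15171 to 16664 on wild type and 16129 to 17391 on MuRF1 het MuRF2 null arrays; the pup channel had 22007 to 25197 throughout. The dimmest arrays were double null replicate 2 and MuRF1 null MuRF2 het replicate 1, and the main results that rest on them are also given without them. The deposited file of double null replicate 2 also held rounded values. Wild type and double null hearts shared slides 1 and 3, while each het group filled a slide of its own, so the effect of slide cannot be told apart from that of genotype there. The MuRF1 het MuRF2 null arrays alone were scored by Agilent Feature Extraction 9.5.3.1, the other 12 by 9.1.3.1. That version cannot be told apart from this genotype either. A fit with slide as a fixed block called 3 member probes between double null and wild type, against 2 without it.

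The probes are 60 bases long, and 9 of the 17 cross an exon boundary. The sequences of the probes on which the results turn are printed here so that the part of each transcript that was read is known, in lower case and 5′ to 3′ on the transcript.
Tnnc1 A_51_P461894: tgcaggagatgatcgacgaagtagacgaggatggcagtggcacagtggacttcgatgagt
Tnni3 A_52_P563123: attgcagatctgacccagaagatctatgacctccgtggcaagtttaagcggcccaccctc
Tnni1 A_52_P657360: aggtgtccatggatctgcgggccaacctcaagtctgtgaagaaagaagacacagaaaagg
Tnnt2 A_51_P338262: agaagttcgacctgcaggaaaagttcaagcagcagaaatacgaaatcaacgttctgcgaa
Tnnt1 A_51_P362627: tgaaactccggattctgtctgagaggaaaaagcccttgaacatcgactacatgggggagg
Tpm1 A_52_P532910: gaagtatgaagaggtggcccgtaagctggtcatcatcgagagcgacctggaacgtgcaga
Tpm1 A_51_P325173: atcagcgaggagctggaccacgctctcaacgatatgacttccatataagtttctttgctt
The second Tnnt2 probe, A_52_P430110, was designed on the cDNA AK086260 and lies on chromosome 1 at 135725272 to 135725331, in the coordinates of the array design, whose build is not named in the files. The other Tnnt2 probe, from NM_011619, spans 135737607 to 135737919 on the same strand, 12275 bases further on. The 30 bases at the start of A_52_P430110 are given for that reason.
Tnnt2 A_52_P430110, bases 1 to 30: taatcttgacattctgtttcatacaccaca

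Because the isoforms are related, probes of different genes were compared in 128 pairs by their best ungapped match of at least 20 bases, and the closest are printed with differing letters in capitals. The closest pair, a Tpm1 and a Tpm2 probe, had 27 of 33 letters in common, or 81.8%, with a longest identical run of 9.
Tpm1 A_52_P532910: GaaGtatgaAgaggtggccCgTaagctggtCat
Tpm2 A_52_P418477: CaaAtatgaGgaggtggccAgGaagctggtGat
A cardiac and a fast troponin T probe had 29 of 44 letters in common, or 65.9%.
Tnnt2 A_51_P338262: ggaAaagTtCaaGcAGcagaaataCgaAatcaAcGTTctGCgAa
Tnnt3 A_51_P345699: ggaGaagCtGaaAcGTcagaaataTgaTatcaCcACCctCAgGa
A slow and a cardiac troponin I probe had 23 of 37 letters in common, or 62.2%.
Tnni1 A_51_P435704: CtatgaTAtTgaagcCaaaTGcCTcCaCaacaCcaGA
Tnni3 A_51_P386983: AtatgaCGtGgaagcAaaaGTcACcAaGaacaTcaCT

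In wild type hearts the cardiac isoforms were the ones richer in heart than in newborn pup. The ratio was highest for Tnni3, the cardiac troponin I, at 6.14 ± 0.10 (SD, n = 4; 70.5-fold) by A_52_P563123 and 5.61 ± 0.21 (48.8-fold) by A_51_P386983, followed by cardiac troponin T (Tnnt2 A_51_P338262) at 4.05 ± 0.09 (16.6-fold) and cardiac troponin C (Tnnc1) at 3.51 ± 0.15. Neighbours among these 4 probes did not overlap. The Tpm1 probes A_51_P325173 and A_52_P532910, at 2.72 ± 0.15 and 2.58 ± 0.11, overlapped each other, and Tnnt2 A_52_P430110 was near the pup at 0.28 ± 0.11.

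The remaining 10 probes were lower in heart than in pup, a body that includes growing skeletal muscle. Fast troponin T was lowest (Tnnt3 A_52_P622418, -3.94 ± 0.19, 15.4-fold higher in pup), and the other fast isoforms Tnni2 and Tnnc2 were at -3.34 ± 0.22 and -2.97 ± 0.23. Slow troponin T (Tnnt1) was at -2.55 ± 0.09, and slow troponin I (Tnni1) at -2.08 ± 0.24 and -1.44 ± 0.17. Tpm2, the beta tropomyosin of slow and fast muscle, was at -2.97 ± 0.09 and -2.38 ± 0.08. The third Tpm1 probe, A_52_P44949, was at -1.79 ± 0.11, below 0 unlike the other probes of that gene. From Tpm1 A_52_P44949 down, most neighbours in the order overlapped; those that did not were Tnnt1 with Tnnc2 and the 2 Tnnt3 probes.

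**Figure D1:**
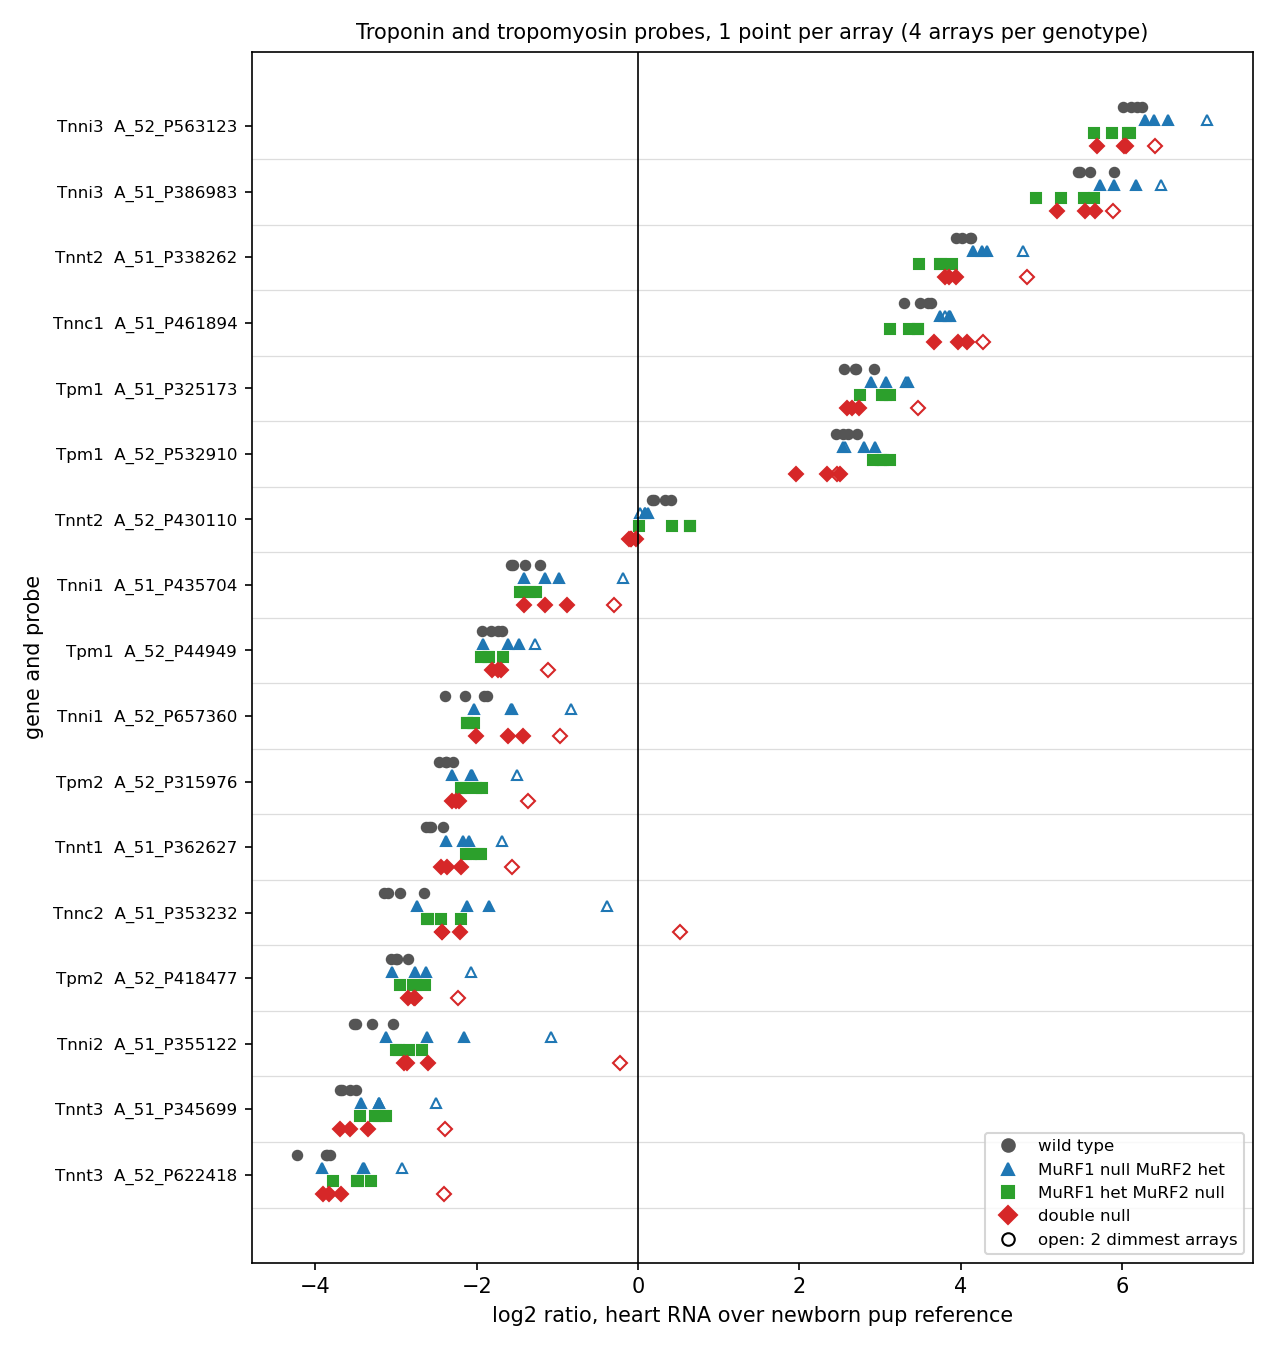
Log2 ratio of heart over pup reference (x axis) for each of the 17 probes (y axis, ordered by wild type mean), 1 point per array, with 4 arrays in each of 4 genotypes and the 2 dimmest arrays drawn open. Tnni3, Tnnc1, Tnnt2 A_51_P338262 and the Tpm1 probes A_51_P325173 and A_52_P532910 lie to the right of 0 on every array, Tnnt2 A_52_P430110 lies on both sides, and the other probes lie to the left except Tnnc2 on 1 array. For Tnnc2 and Tnni2 the open double null point, at 0.52 and -0.22, lies apart from the other double null arrays.

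Between double null and wild type hearts, 2 of the 17 probes passed the threshold by limma with Benjamini-Hochberg adjustment over all probes: Tnnc1 rose, and Tnnt2 A_52_P430110 was lower. The second call gives no support to a change, because the probe entered the test only through the groups where it was bright. The share stands against 20.8% of all probes tested in this comparison, 8.94% higher and 11.9% lower. Differences were above 0 for 13 of the 17 and their median was 0.34, against -0.01 over all probes. Without double null replicate 2 the median was 0.12, with 11 above 0, and with array brightness as a covariate it was -0.21, with 2 above 0. The groups of 4 did not overlap for 5 probes (24.9% of all probes). In MuRF1 null MuRF2 het against wild type, 0 of 17 were called by limma (1.15% of all probes), with a smallest adjusted p of 0.131. At an unadjusted limma p under 0.05 there were 11 of 17, against 3876 of 16810 over all probes. Groups did not overlap for 6, against 12.3%. In MuRF1 het MuRF2 null against wild type, 0 of 17 were called by limma (1.68% of all probes), with a smallest adjusted p of 0.0716. At an unadjusted limma p under 0.05 there were 2 of 17, against 2648 of 16809 over all probes. Groups did not overlap for 8, against 19.6%. Other settings called up to 11, 10 and 8 member probes in these 3 comparisons. The 11 and 10 came with median centring, which called 9015 and 9362 of all probes. The 8 came with fits on only the 2 groups compared (2539 of all probes) and with array brightness as a covariate (1891).

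Directions depend on how the arrays were scaled. The values above follow an intensity-dependent (loess) normalisation within each array. With each array centred on its median instead, the middle of all probes moved, against wild type, to -0.42 for double null hearts, to -0.43 for the MuRF1 null MuRF2 het group, and to -0.31 for the MuRF1 het MuRF2 null group. Members then had a median of -0.88, -0.85 and -0.29, with 0, 0 and 2 of 17 above 0, and 3, 3 and 9 of 17 above the middle of all probes. Of the 17, 11, 10 and 1 were called, all lower. Over all probes, 9015 of 16810, 9362 of 16810 and 3766 of 16809 were called with this centring. By the authors' Feature Extraction ratios 11, 15 and 13 of 17 were above 0. The 3 comparisons share the wild type arrays.

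**Figure D2:**
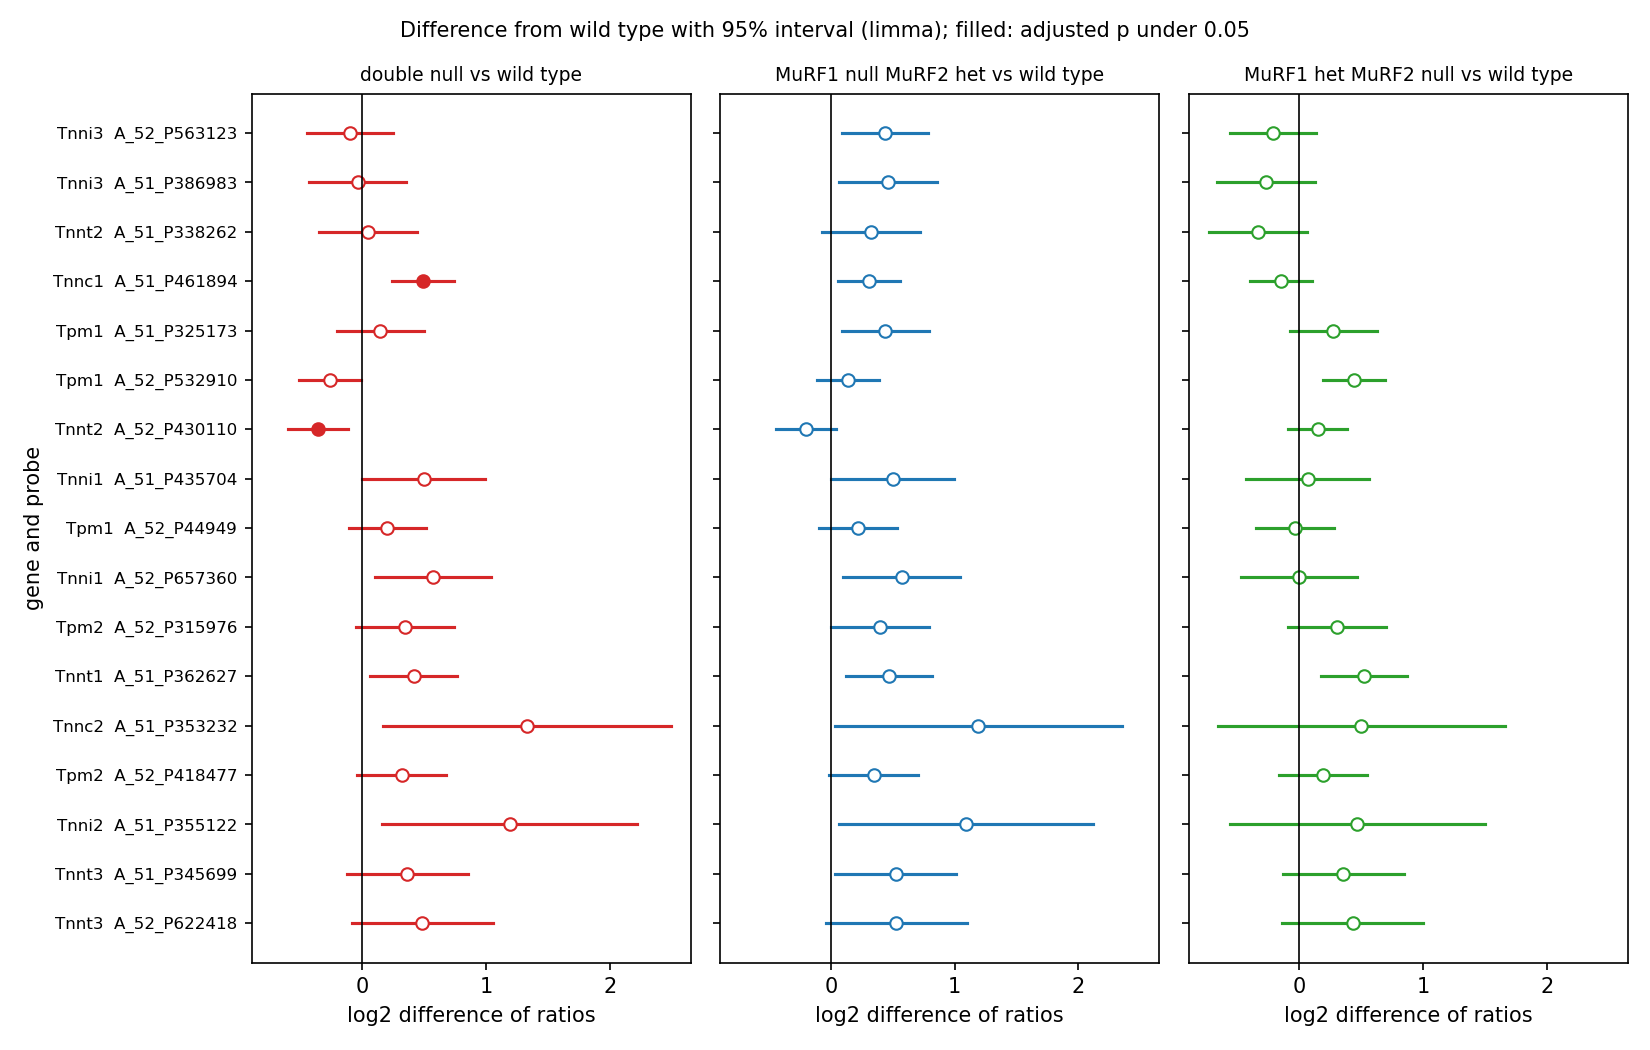
Difference of mean log2 ratio from wild type (x axis, log2) with its 95% interval from limma for each of the 17 probes (y axis) in the 3 mutant groups; filled points have an adjusted p under 0.05. Tnnc1 at 0.49 and Tnnt2 A_52_P430110 at -0.36 in double null hearts are the only filled points, the second on signal not above background in double null hearts, and with median centring in place of loess Tnnc1 is at -0.84, with an adjusted p of 0.154.

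Cardiac troponin C, which carries the calcium that starts each contraction, was higher in hearts lacking both ligases. Tnnc1 was at 3.64, 3.60, 3.30 and 3.49 in the wild type arrays (replicates 1 to 4), 4.07, 4.28, 3.66 and 3.96 in double null, 3.80, 3.86, 3.74 and 3.86 in MuRF1 null MuRF2 het, and 3.47, 3.12, 3.48 and 3.36 in MuRF1 het MuRF2 null. Every double null array was above every wild type and every MuRF1 het MuRF2 null array, and so was every array of the MuRF1 null MuRF2 het group. The rise in double null over wild type was 0.49 ± 0.12 (SE; 1.40-fold; 95% interval 0.24 to 0.74), with a limma adjusted p of 0.0106. Without the 2 dimmest arrays it was 0.40, with a limma adjusted p of 0.0181. The call was lost with a normexp offset of 0 (0.45, limma adjusted p 0.0664), with arrays scaled to one spread (0.99, 0.0516), in the Cy5 channel alone (0.26, 0.0865), with array brightness as a covariate (0.34, 0.0951) and within slide 1 (0.56, 0.164) and slide 3 (0.42, 0.0511), and the sign turned with median centring (-0.84, 0.154).

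Tnnc1 was also called in both comparisons with MuRF1 het MuRF2 null hearts. It was 0.64 ± 0.12 higher in double null hearts (limma adjusted p 0.00178), and the MuRF1 null MuRF2 het group stood 0.46 ± 0.12 higher (0.0296). With median centring these differences were -0.12 and -0.34. Against wild type, MuRF1 null MuRF2 het hearts were at 0.31 ± 0.12 (limma adjusted p 0.153) with no overlap, and MuRF1 het MuRF2 null hearts at -0.15 ± 0.12.

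The fast troponin C gene, Tnnc2, had 1 array far from the others. Tnnc2 was at -2.65, -3.10, -3.15 and -2.96 in wild type, -2.43, 0.52, -2.43 and -2.21 in double null, -0.39, -2.74, -1.85 and -2.11 in MuRF1 null MuRF2 het, and -2.44, -2.61, -2.61 and -2.19 in MuRF1 het MuRF2 null arrays. The high values 0.52 and -0.39 are those of the 2 dimmest arrays. Double null arrays were all above wild type, by 1.33 ± 0.55 on average, which missed the threshold (limma adjusted p 0.0906). Without the 2 dimmest arrays, an exclusion chosen after seeing the data, the difference was 0.61 ± 0.17, and limma called it (adjusted p 0.0167). With median centring of all arrays the sign turned, to -0.59, and it was not called.

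Cardiac troponin I, the inhibitory subunit, was not called between any mutant group and wild type. Tnni3 A_52_P563123 was at 6.25, 6.19, 6.11 and 6.01 in wild type, 6.05, 6.41, 5.69 and 6.03 in double null, 7.06, 6.29, 6.57 and 6.40 in MuRF1 null MuRF2 het, and 5.87, 5.66, 6.10 and 6.08 in MuRF1 het MuRF2 null arrays. Double null and wild type overlapped, with a difference of -0.10 ± 0.16 and a 95% interval from -0.44 to 0.25. The MuRF1 null MuRF2 het arrays were all above the other het group. The second probe, A_51_P386983, lies 3 bases away and followed it over the 16 arrays (r = 0.96, across arrays that share the reference), with -0.04 ± 0.19 between double null and wild type.

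Between the het groups, Tnni3 was higher in MuRF1 null MuRF2 het hearts, by 0.65 ± 0.16 (A_52_P563123, 1.57-fold, limma adjusted p 0.0258) and 0.73 ± 0.19 (A_51_P386983, 1.66-fold, 0.0271). With median centring the differences were -0.31 and -0.12. In the Cy5 channel alone A_52_P563123 was lower, by -0.32, with a limma adjusted p of 0.0115. The comparison called 4 of 17 members, all higher in MuRF1 null MuRF2 het hearts, against 8.59% of all probes in either direction and 4.27% upward. All 4 lost the call by limma without MuRF1 null MuRF2 het replicate 1 or 3, or without MuRF1 het MuRF2 null replicate 1 or 2 (adjusted p from 0.0583 to 0.114), while without the 2 dimmest arrays all 4 kept it. They also lost it with a normexp offset of 0, with the Feature Extraction ratios, with arrays scaled to one spread and with brightness as a covariate. In double null against MuRF1 null MuRF2 het hearts, Tnni3 was at -0.53 ± 0.16 and -0.50 ± 0.19 (limma adjusted p 0.239 and 0.378). The mean ratios of the 2 probes were 6.04 and 5.57 in double null and 6.14 and 5.61 in wild type hearts. The het groups differ in MuRF2 alleles, slide and Feature Extraction version as well, which cannot be told apart from MuRF1 here.

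With the loess scaling, slow troponin I, which the heart uses before birth, was higher in both MuRF1-deficient groups on average without passing the test. Tnni1 A_52_P657360 was at -1.90, -1.87, -2.39 and -2.15 in wild type, -1.42, -0.97, -2.01 and -1.62 in double null, -0.84, -2.04, -1.58 and -1.57 in MuRF1 null MuRF2 het, and -2.12, -2.12, -2.03 and -2.04 in MuRF1 het MuRF2 null arrays. Double null and wild type overlapped through double null replicate 3, with a difference of 0.57 ± 0.22 (limma adjusted p 0.0758). The second probe, A_51_P435704, gave 0.50 ± 0.23 (0.133) and followed the first over the arrays (r = 0.94). It was above background on 1 of 4 double null and 2 of 4 MuRF1 null MuRF2 het arrays, and A_52_P657360 on 3 of 4 in each of these groups. Without MuRF1 null MuRF2 het replicate 1, which takes no part in this comparison but in the shared spread, the limma adjusted p were 0.0265 and 0.049. With median centring A_52_P657360 was at -0.30 against wild type in double null and in MuRF1 null MuRF2 het hearts, and was not called. A_51_P435704 was then at -0.21 in double null hearts, which limma called lower.

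Fast troponin I, Tnni2, resembled Tnnc2. Tnni2 was at -3.04, -3.50, -3.52 and -3.29 in wild type, -2.90, -0.22, -2.86 and -2.60 in double null, -1.08, -3.12, -2.16 and -2.61 in MuRF1 null MuRF2 het, and -2.83, -3.00, -2.96 and -2.67 in MuRF1 het MuRF2 null arrays. All double null and all MuRF1 het MuRF2 null arrays lay above the wild type ones. The differences from wild type were 1.19 ± 0.49 in double null (limma adjusted p 0.0886) and 0.47 ± 0.49 in MuRF1 het MuRF2 null hearts (0.717). Without the 2 dimmest arrays, an exclusion chosen after seeing the data, the first was 0.55 ± 0.17, with a limma adjusted p of 0.0284. With median centring of all arrays its sign turned, to -0.60, and it was not called.

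Tnnt2, cardiac troponin T, was read by 2 probes, of which only A_51_P338262, from NM_011619, had signal above background in every group. Tnnt2 A_51_P338262 was at 4.12, 4.13, 3.95 and 4.02 in wild type, 3.80, 4.82, 3.85 and 3.94 in double null, 4.78, 4.15, 4.26 and 4.32 in MuRF1 null MuRF2 het, and 3.74, 3.49, 3.75 and 3.89 in MuRF1 het MuRF2 null arrays. Double null and wild type overlapped (0.05 ± 0.19), and without the dim array double null replicate 2 the other 3 lay below every wild type array. MuRF1 het MuRF2 null arrays were all below wild type (-0.34 ± 0.19, limma adjusted p 0.418; without the 2 dimmest arrays 0.0277). The call between the het groups, 0.66 ± 0.19 higher in MuRF1 null MuRF2 het (limma adjusted p 0.0391), turned to -0.45 with median centring and to -0.39 in the Cy5 channel alone (adjusted p 0.0321).

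Tnnt2 A_52_P430110, on AK086260, was dimmest in double null hearts, where it gives only a bound. Its ratios were 0.20, 0.41, 0.18 and 0.33 in wild type, -0.09, -0.11, -0.08 and -0.03 in double null, 0.03, 0.12, 0.09 and 0.09 in MuRF1 null MuRF2 het, and 0.64, 0.42, 0.01 and 0.65 in MuRF1 het MuRF2 null arrays. The double null arrays were below all 12 others. Because it was not well above background on any double null or MuRF1 null MuRF2 het array, the fold has only a bound. By mean signals the bound was 1.10-fold for wild type over double null. It has no error, and the probe entered the test only through its bright groups, so it gives no support to a change. The fitted difference was -0.36 ± 0.11, with a limma adjusted p of 0.0361. The bound sets the bright group's mean heart signal against, on each dim array, the higher of the probe's own signal and the lowest signal well above background, after normalisation and without a dye swap. The fitted value was -1.77 with a normexp offset of 0 and -2.71 by the Feature Extraction ratio, since it rests on how background is treated. The call was lost in 11 of 32 alternative settings (limma adjusted p 0.053 to 0.219). Those were no filter (0.0551), median centring (0.136), the brightness covariate (0.128), within slide 1 (0.219), within slide 3 (0.0974), and each fit without double null replicate 1, 2 or 4 or wild type replicate 2, 3 or 4 (0.053 to 0.104).

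The same Tnnt2 probe passed the threshold in double null against MuRF1 het MuRF2 null hearts (fitted -0.51 ± 0.11, limma adjusted p 0.00513). The same limits hold there, and the bound from mean signals was 1.12-fold. One MuRF1 het MuRF2 null array, replicate 3, was not above background. In MuRF1 null MuRF2 het against wild type the fitted difference was -0.20 ± 0.11, which was not called (limma adjusted p 0.295). The bound there was 1.08-fold, again from mean signals without an error, and does not show that wild type was higher.

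Slow and fast troponin T were low in every heart. Tnnt1, the slow form, was at -2.42, -2.63, -2.57 and -2.59 in wild type, -2.19, -1.57, -2.44 and -2.36 in double null, -1.68, -2.10, -2.17 and -2.38 in MuRF1 null MuRF2 het, and -1.94, -2.08, -2.13 and -1.97 in MuRF1 het MuRF2 null arrays. Every array of both het groups was above every wild type array, by 0.52 ± 0.16 on average in MuRF1 het MuRF2 null (limma adjusted p 0.118) and 0.47 ± 0.16 in MuRF1 null MuRF2 het (0.131). Without the 2 dimmest arrays the first had a limma adjusted p of 0.00237 at the same difference. The 2 Tnnt3 probes, of the fast form, lay between -4.22 and -3.50 in wild type, and between -3.91 and -2.39 in double null arrays, where the 2 highest values were both from replicate 2. They were 0.48 ± 0.27 and 0.36 ± 0.23 above wild type in double null hearts (limma adjusted p 0.199 and 0.263), and 0.13 ± 0.18 and 0.08 ± 0.17 without that replicate.

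Among the tropomyosins, the Tpm1 probe A_52_P532910 differed most between genotypes. It was at 2.60, 2.46, 2.71 and 2.54 in wild type, 1.96, 2.47, 2.50 and 2.34 in double null, 2.57, 2.55, 2.94 and 2.80 in MuRF1 null MuRF2 het, and 2.91, 3.12, 3.01 and 3.04 in MuRF1 het MuRF2 null arrays. MuRF1 het MuRF2 null arrays were above all wild type and double null ones, and double null arrays were below all of both het groups. Tpm1 was lower in double null than in MuRF1 het MuRF2 null hearts by this probe, with a difference of -0.70 ± 0.12 (95% interval -0.96 to -0.45; limma adjusted p 0.000931), and it was lower under each scaling tried. In that comparison 3 of 17 members were called, 1 higher and 2 lower (Tnnt2 A_52_P430110 being 1 of these), against 25.4% of all probes (12.2% higher, 13.3% lower), and 4 had groups that did not overlap, against 27.9%. The call was lost with median centring (-1.84, limma adjusted p 0.136) and with arrays scaled to one spread (-0.45, 0.133). Against wild type the probe was at 0.44 ± 0.12 in MuRF1 het MuRF2 null (limma adjusted p 0.0716) and -0.26 ± 0.12 in double null hearts (0.119).

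The Tpm1 probe A_51_P325173 was at 2.93, 2.55, 2.70 and 2.69 in wild type, 2.59, 3.47, 2.74 and 2.66 in double null, 3.33, 2.89, 3.35 and 3.08 in MuRF1 null MuRF2 het, and 2.75, 3.08, 3.02 and 3.12 in MuRF1 het MuRF2 null arrays. All groups overlapped wild type, and the highest double null value, 3.47, was that of the dim array. The third Tpm1 probe lay between -1.94 and -1.12 on all arrays. Over the 16 arrays A_52_P532910 had r = 0.45 with A_51_P325173 and r = -0.17 with A_52_P44949. The files place the 3 probes on the minus strand of chromosome 9, with 3110 bases between A_51_P325173 and A_52_P532910 and 9696 between A_52_P532910 and A_52_P44949.

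Tpm2 was not called in any comparison. Tpm2 A_52_P418477 was at -2.86, -3.00, -3.06 and -2.98 in wild type and -2.78, -2.23, -2.85 and -2.77 in double null arrays. Double null lay above wild type throughout, by 0.32 ± 0.17 (limma adjusted p 0.18), with the highest value again in replicate 2. The second probe, A_52_P315976, gave 0.34 ± 0.19 (0.189). Without replicate 2 the differences were 0.18 ± 0.16 and 0.12 ± 0.14.

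Between double null and MuRF1 null MuRF2 het hearts, which differ in 1 MuRF2 allele, 0 of 17 members were called by limma, against 0.244% of all probes. At an unadjusted limma p under 0.05 there were 3 of 17, against 1521 of 16810 over all probes. Tpm1 A_52_P532910 had the smallest adjusted p, 0.22, at -0.40 ± 0.12. It was 1 of 2 probes whose groups did not overlap, against 2.66% of all probes; the other, Tnnt2 A_52_P430110, was not above background on any array of either group. Without the 2 dimmest arrays limma called Tnnt2 A_51_P338262 at -0.38, Tnni3 A_52_P563123 at -0.50 and Tpm1 A_52_P532910 at -0.50 here, all lower in double null.

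Differences between 2 probes on the same array are free of any shift common to the whole array, though not of a correction that depends on brightness. Tnnc1 minus Tnni3 A_52_P563123 was -1.98, -2.13, -2.02 and -2.06 in double null arrays, above all 12 others, which ran from -3.25 to -2.40. With median centring the double null values were -2.05, -2.02, -2.09 and -2.12, again above the rest. So, by these probes and with no test, the ratio of Tnnc1 stood higher against that of Tnni3 on every double null array. The second Tnni3 probe was not used for this difference.

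The difference between the slow and the cardiac form of troponin I was also higher in double null arrays, on a weak Tnni1 signal. Tnni1 A_52_P657360 minus Tnni3 A_52_P563123 was -7.47, -7.39, -7.70 and -7.65 in double null, between -8.50 and -8.06 in wild type, between -8.33 and -7.89 in MuRF1 null MuRF2 het and between -8.13 and -7.78 in MuRF1 het MuRF2 null arrays. The double null arrays were above all others. With median centring they stayed above wild type, but not all were above MuRF1 null MuRF2 het replicate 1, then at -7.26. The next highest array of that group, replicate 3 at -8.19, was below double null replicates 1 and 3, both at -8.10. Tnni1 A_52_P657360 was above background on 3 of 4 double null and 3 of 4 MuRF1 null MuRF2 het arrays. Its mean log2 heart signal before normalisation was 6.33 in double null and 6.56 in wild type. For Tnni3 A_52_P563123 it was 13.12 and 15.01. The part of signal strength in the difference was not tested. All differences between probes were compared by their values only, with no test.

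For slow against cardiac troponin T the higher values were in MuRF1 het MuRF2 null arrays. Tnnt1 minus Tnnt2 A_51_P338262 was between -5.88 and -5.56 in MuRF1 het MuRF2 null arrays, above wild type (-6.77 to -6.52), MuRF1 null MuRF2 het (-6.70 to -6.25) and double null (-6.38 to -5.99). With median centring the dim arrays of the last 2 groups were higher, at -6.01 and -5.69. Tnnt3 minus Tnnt2 was likewise higher in MuRF1 het MuRF2 null (-7.53 to -6.97) than in wild type arrays (-8.17 to -7.88), but double null arrays (-7.78 to -7.22) were also all above wild type and overlapped MuRF1 het MuRF2 null.

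Tpm1 A_51_P325173 minus Tpm1 A_52_P532910 was between -0.16 and 0.08 in MuRF1 het MuRF2 null and between 0.24 and 1.00 in double null arrays. Those 2 groups did not overlap, and wild type, from -0.01 to 0.33, overlapped both. Tpm2 minus Tpm1 overlapped between all groups, with means from -5.79 to -5.52.

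**Figure D3:**
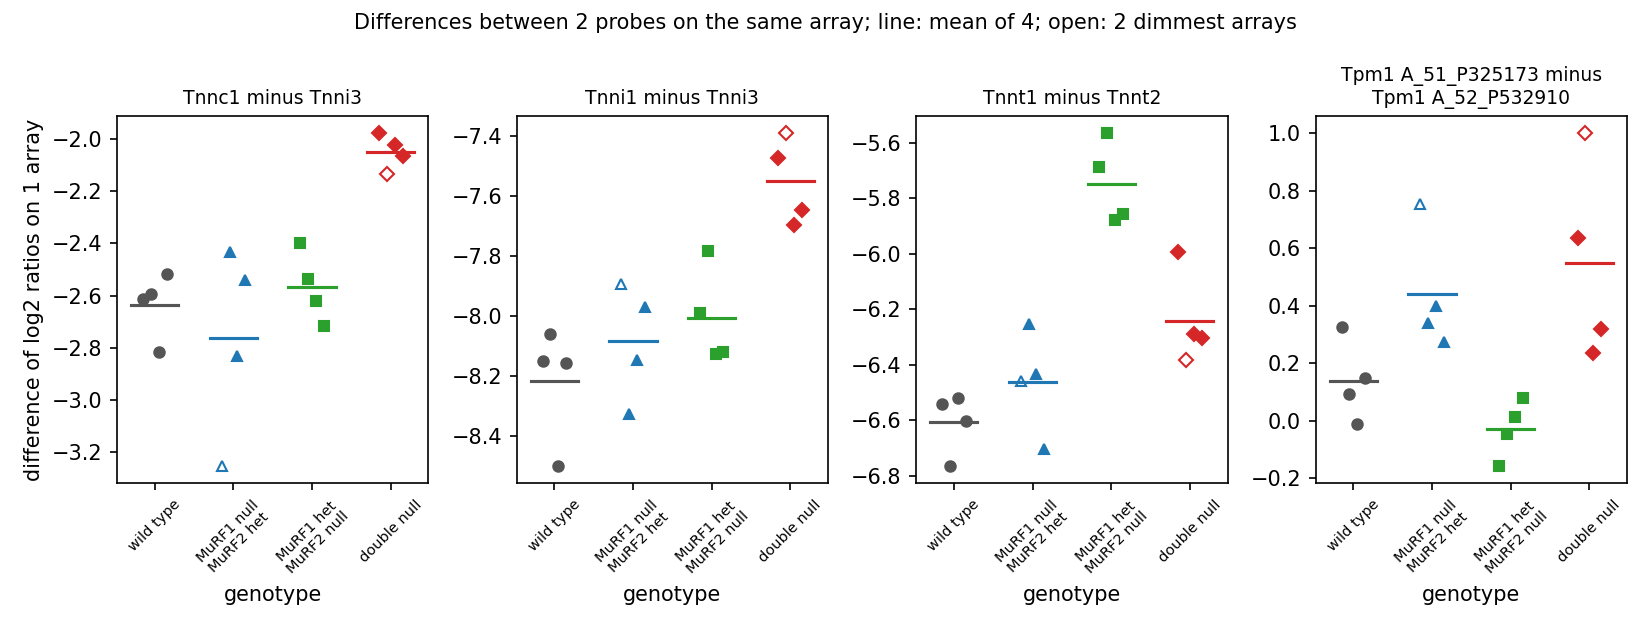
Difference of log2 ratios between 2 probes on the same array (y axis) for 4 pairs, by genotype (x axis), with the mean of 4 arrays as a line and the 2 dimmest arrays open. Double null arrays lie above all others for Tnnc1 minus Tnni3 (-2.13 to -1.98) and Tnni1 minus Tnni3, and MuRF1 het MuRF2 null arrays for Tnnt1 minus Tnnt2. With median centring only the Tnnc1 pair keeps its place above all other arrays. The Tnni1 probe was above background on 3 of 4 double null arrays.

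Array brightness moved with many of these values. Over the 16 arrays, which share the reference, the ratio of Tnni1 A_52_P657360 had r = -0.94 with the number of probes above background, Tnnc2 and Tnni2 each r = -0.90, and Tnnc1 r = -0.78. Without the 2 dimmest arrays these were -0.83, -0.65, -0.65 and -0.83. Tpm1 A_52_P532910 and Tnnt2 A_52_P430110 went the other way, with r = 0.41 and 0.62, the second probe being above background on wild type and MuRF1 het MuRF2 null arrays only. Brightness also differed between the genotypes, and its part in the results was not tested.

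**Figure D4:**
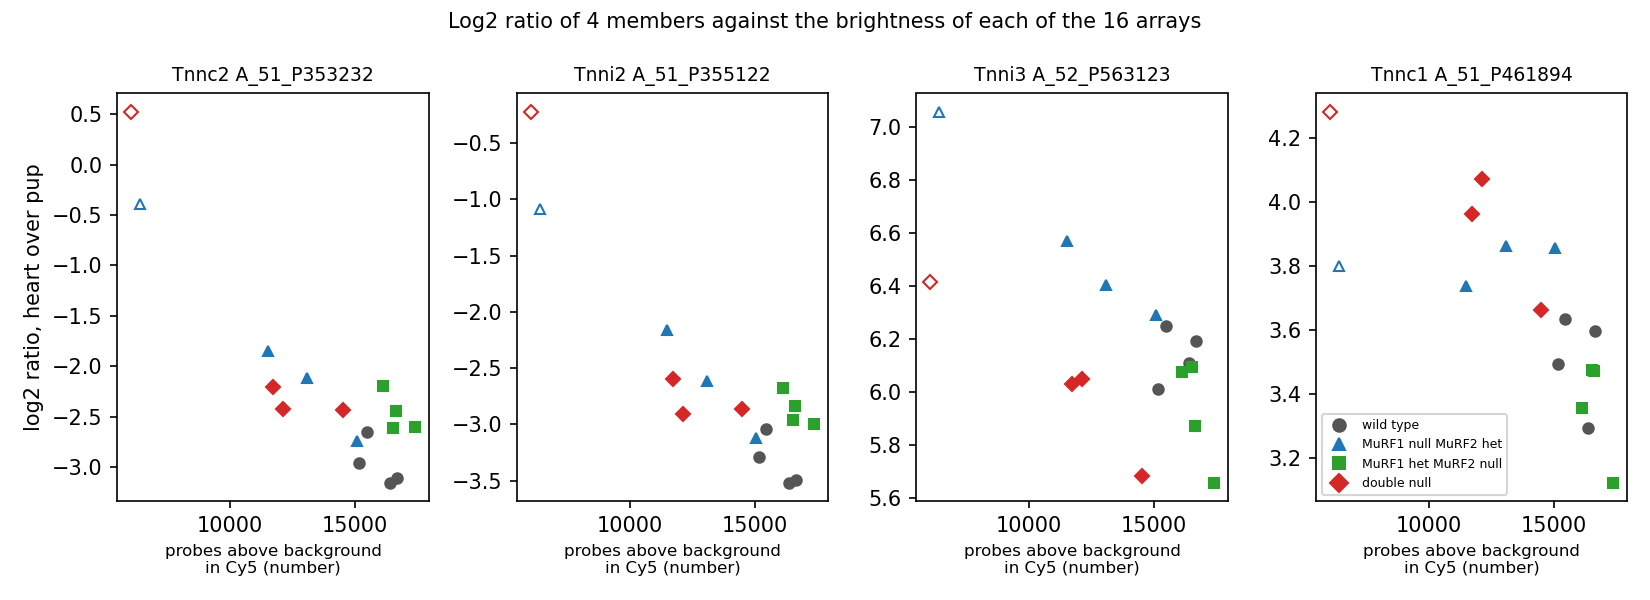
Log2 ratio of heart over pup (y axis) for Tnnc2, Tnni2, Tnni3 A_52_P563123 and Tnnc1 against the number of probes above background in the heart channel (x axis), 1 point for each of 16 arrays. Tnnc2 and Tnni2 are highest on the 2 dimmest arrays (open), while for Tnnc1 the double null arrays from 3.66 to 4.28 lie above wild type at lower brightness.

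Other genes of the thin filament moved in both directions in double null against wild type hearts. Of 15 tested partners, 1 rose and 3 fell, with a median of -0.03, against 8.94% of all probes higher and 11.9% lower. Skeletal actin (Acta1) rose by 2.26 ± 0.28 (limma adjusted p 0.000175). Fhod3, a formin of cardiac thin filaments, was at -1.46 ± 0.26, Nebl, the cardiac nebulin relative, at -1.03 ± 0.32, and Capzb, which caps the barbed end of actin, at -0.36 ± 0.11. With median centring 0 rose and 8 fell, where 9015 of 16810 probes were called in either direction. Acta1 was then at 0.59, with a limma adjusted p of 0.418. In double null against MuRF1 null MuRF2 het hearts Acta1 was the 1 partner called (1.59 ± 0.28), against 0.244% of all probes. Against MuRF1 het MuRF2 null hearts Fhod3 (-1.43 ± 0.26) and Nebl (-1.55 ± 0.32) had the smallest p of 3 called. There 25.4% of all probes were called. Nebl was also lower in MuRF1 null MuRF2 het than in MuRF1 het MuRF2 null hearts (-1.35 ± 0.32).

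Of 10 thick filament genes tested, 3 rose and 3 fell in double null hearts, with a median of -0.01. The shares over all probes were 8.94% higher and 11.9% lower. Slow myosin (Myh7) was 4.43 ± 0.72 higher and stayed higher with median centring (2.86). Myosin Myh6 was at -1.52 ± 0.31, the M-band protein Myom1 at -1.11 ± 0.21 and titin (Ttn) at -1.28 ± 0.34. Each listed gene was read by its brightest tested probe. Another Ttn probe, A_51_P521106, was at -0.57 and was not called (limma adjusted p 0.0898). By its brightest probe titin was also lower in double null (-2.42 ± 0.34) and in MuRF1 null MuRF2 het hearts (-2.11 ± 0.34) than in MuRF1 het MuRF2 null hearts.

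Of 17 kinases and phosphatases that act on thin filament proteins, 1 rose and 5 fell in double null hearts, with a median of -0.03. Among all probes 8.94% were higher and 11.9% lower. The protein phosphatase 1 subunit Ppp1cb rose by 0.55 ± 0.08, but was at -0.71 with median centring (adjusted p 0.243). The protein phosphatase 2A subunit Ppp2r1a was at -0.31 ± 0.07, the protein kinase C gene Prkce at -0.33 ± 0.08 and the myosin phosphatase subunit Ppp1r12b at -0.91 ± 0.30. Ppp1cb was higher than in MuRF1 het MuRF2 null hearts both in double null (0.70 ± 0.08) and in MuRF1 null MuRF2 het hearts (0.36 ± 0.08). Over these 3 lists together, 0 of 42 genes were called by limma in MuRF1 null MuRF2 het against wild type (1.15% of all probes). In MuRF1 het MuRF2 null against wild type 0 of 42 were called (1.68% of all probes). At an unadjusted limma p under 0.05 there were 14 and 6, against 3876 of 16810 and 2648 of 16809 over all probes.

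Markers of other muscle and cell types give the background to the isoform values. Their counts are for double null against wild type, where 8.94% of all probes were higher and 11.9% lower. Of 13 fast skeletal muscle markers tested, 2 rose (Myh1 0.92 ± 0.27 and Ampd1) and 2 fell (Myh4 -1.90 ± 0.27 and Atp2a1 -1.68 ± 0.36), with a median of 0.64; the median ratio of the list ran from -1.52 to -0.40 over double null and from -1.24 to -1.04 over wild type arrays. Pvalb, a defining marker of fast fibres, was not above background on enough arrays to be tested. Of 7 slow muscle markers, Myh7 rose and Atp2a2 fell (-0.66 ± 0.14). Of 10 cardiac muscle markers, 2 rose (Nppa 2.90 ± 0.36 and Csrp3) and 3 fell (Ckmt2 -0.96 ± 0.10, Myh6 and Ryr2), and the list ran from 2.94 to 3.50 in double null and from 3.52 to 3.81 in wild type arrays. Csrp3 was at -1.17 with median centring.

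Of 8 endothelial markers 7 fell, among them Flt1 (-1.17 ± 0.19) and Kdr (-1.06 ± 0.19), against 11.9% of all probes lower. With median centring 8 fell, where 9015 of 16810 probes were called in either direction. The list ran from 0.01 to 0.37 in double null and from 0.83 to 1.07 in wild type arrays. In MuRF1 null MuRF2 het hearts 2 of the 8, Flt1 (-0.86) and Eng (-0.45), were lower than in wild type, against 1.15% of all probes called. Of 8 fibroblast markers 3 rose (Lum, Postn and Tcf21) and with median centring 4 fell. Of 6 atrial markers tested 3 rose (Nppa, Myl4 and Myl7) and Tbx5 fell. Of 10 smooth muscle markers 2 rose (Cnn1 and Tagln) and Smtn fell, and of 6 blood markers Ptprc rose. In MuRF1 het MuRF2 null against wild type the 1 marker called was Myoz2 (-0.58 ± 0.14), against 1.68% of all probes. The part of these cell types in the troponin and tropomyosin values was not tested.

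The genes whose pattern over the 16 arrays was most like Tnnc1 were Prxl2b (r = 0.92), Mrpl52 (0.92), Uap1l1 (0.92) and Trim54 (0.91), the last being MuRF3, a relative of the deleted ligases. These correlations describe 16 arrays that share groups, reference and brightness.

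Tnnc1 minus Tnni3 A_52_P563123, a pair that was not planned, was higher on double null arrays than on all others, by values only and with no test. The sequences before the start sites of both genes are shown, from RefSeq on GRCm38.p6. Rows were at hand for 8 of the 10 genes; Tnni2 and Tnnt3 had none. Each motif was searched on both strands and is in capitals where found, and its share is that of 32851 promoters over the same 250 bases. The motif of TEAD factors, CATTCC, occurs in 12.6%. The motif of GATA factors, AGATAA or the same with T at its start, G at its end or both, occurs in 26.5%. The motif of MEF2 factors, CTATTTTTA, occurs in 0.454%. The TATA box, taken as TATAAA or as the longer TATATAA, which can overlap it, occurs in 13.8%. The E-box, CANNTG, occurs in 66.2% and was not set in capitals.
Tnnc1, chr14:31208062-31208311, plus strand: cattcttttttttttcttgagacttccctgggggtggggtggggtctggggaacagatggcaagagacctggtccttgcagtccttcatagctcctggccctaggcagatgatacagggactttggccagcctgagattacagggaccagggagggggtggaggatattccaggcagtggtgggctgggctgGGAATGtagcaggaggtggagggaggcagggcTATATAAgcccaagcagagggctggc
Tnni3, chr7:4522529-4522778, minus strand: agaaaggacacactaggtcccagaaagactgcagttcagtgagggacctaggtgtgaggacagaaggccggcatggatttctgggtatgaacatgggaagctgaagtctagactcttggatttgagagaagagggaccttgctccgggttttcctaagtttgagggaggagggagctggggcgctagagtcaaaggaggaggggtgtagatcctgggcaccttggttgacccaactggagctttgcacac
The Tnnc1 window held CATTCC on the minus strand 58 bases before the start, TATATAA 26 bases before it, and CAGATG at 197 and 145. The Tnni3 window held none of the capitalised motifs, and CAACTG at 19. Among the other members, Tnnt2 had CATTCC 27 bases before its upstream start and the GATA motif on the minus strand at 166. Tpm1 had CATTCC on the minus strand at 56, Tnni1 had CTATTTTTA at 45 and Tnnt1 had TATAAA at 30. A match describes these letters only, and no binding was measured.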

How the data were processed

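The deposited scanner files hold spot intensity in both colours and, per the file headers, were made by Agilent Feature Extraction 9.1.3.1 (12 arrays) or 9.5.3.1 (4 arrays, the MuRF1 het MuRF2 null group). Their log10 ratio of Cy5 over Cy3 was computed by that program, per the file headers, and the deposited series table of log2 values follows that ratio on the log2 scale minus each probe's median over the arrays (r from 0.982 to 0.997 per array), though not for every probe. Deposited quality flags marked control and irregular spots and signal well above background. The labelling protocol names Cy3 alone; the channel entries of the labels were followed, and no dyes were swapped. From the intensities, background was corrected by normexp with an offset of 50, arrays were normalised by loess, and spots were averaged per probe. Probes with heart signal well above background on at least 4 of 16 arrays (16810) were tested with limma 3.58.1 in R 4.3.3, with all 16 arrays in 1 fit, Benjamini-Hochberg adjustment over these probes and a threshold of 0.05. SE and 95% intervals come from that fit, and the number of arrays limits the precision. Differences between probes on an array were not tested. The fit code was tested on simulated data. Names, sequences and coordinates are those of the array files; their build is not named in the files.

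Every member probe is reported. Of each gene list, up to 4 called genes with the smallest p are named in double null against wild type and up to 2 in other comparisons, with the 4 genes most correlated with Tnnc1, and Trim63. Genes most correlated with Tnnt2 A_52_P430110, which the same rule names, are left out because that probe was not above background in most arrays. Ryr2 was named after its values were seen. The differences Tnnc1 minus Tnni3 and between 2 Tpm1 probes were not among the isoform pairs planned. Members and lists were chosen with earlier results of these data known. Alternatives covered background, scaling, filters, blocks, array weights, a brightness covariate and arrays left out. Leaving out the 2 dimmest arrays was chosen after seeing the data.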

Additional observations from a re-analysis of the deposited data

Results flagged for a closer look

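Among the 68 groups of 4 arrays (17 probes in 4 genotypes), 9 had 1 array whose gap to the nearest other exceeded Dixon's limit as a share of the range; chance marks about 1 group in 20. Of the 9, 8 came from double null replicate 2, the dimmest array, whose file held rounded values. On it Tnnc2 was at 0.52, Tnni2 at -0.22, Tnnt2 A_51_P338262 at 4.82 and Tnnt3 A_52_P622418 at -2.41. Both Tpm2 probes were also high there, at -2.23 (A_52_P418477) and -1.36 (A_52_P315976), and so were Tpm1 A_51_P325173 at 3.47 and Tpm1 A_52_P44949 at -1.12. The other value was Tnnt3 A_52_P622418 in wild type replicate 3, at -4.22, below the other wild type arrays. The part of brightness in these values was not tested.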

How the results depend on the processing

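Calls depended on how arrays were scaled and on single arrays; causes were not tested, and signal over background limits Tnnt2 A_52_P430110 to a bound. Member probes called are given in this order: against wild type, the double null, then MuRF1 null, then MuRF1 het group; double null against MuRF1 null MuRF2 het, double null against MuRF1 het MuRF2 null, and the het groups against each other, where the reported counts were 2, 0, 0, 0, 3 and 4, with 1, 1 and 4 higher in the comparisons that had calls. Median centring gave 11, 10, 1, 0, 0 and 0, array scaling 1, 0, 0, 0, 3 and 0, the Cy5 channel alone 5, 0, 3, 3, 8 and 4, and a normexp offset of 0 gave 2, 0, 0, 0, 4 and 0. The Feature Extraction ratios and the series table each gave 2, 0, 0, 0, 4 and 1. No filter gave 1, 0, 0, 0, 3 and 3, a filter on all 16 arrays 1, 0, 0, 0, 2 and 4 of 14 probes, and 1 probe per gene 1, 0, 0, 0, 1 and 3 of 10. Fits on only the 2 groups compared gave 2, 0, 8, 0, 3 and 3, array weights 9, 7, 6, 3, 8 and 6, and the brightness covariate 2, 0, 8, 2, 12 and 7. Within slide 1, with 2 arrays a group, 0 were called between double null and wild type, within slide 3 it was 2, and without the 2 dimmest arrays the counts were 4, 0, 6, 3, 6 and 4. Directions differed too. All calls with median centring were lower, and so were those with an offset of 0 in double null against wild type. Those of the Cy5 channel alone were lower except the 3 in MuRF1 het MuRF2 null against wild type, so the 4 between the het groups were lower where the 4 reported were higher. With the covariate the 2 in double null against wild type and the 7 between the het groups were lower, as were 11 of the 12 in double null against MuRF1 het MuRF2 null. The Feature Extraction ratios and the series table had the 1 between the het groups lower. Leaving out single arrays gave 1 to 7 (7 without MuRF1 null MuRF2 het replicate 1, 5 without double null replicate 3), 0 to 3 (3 without double null replicate 2), 0 to 1, 0 to 0, 3 to 4 and 0 to 5. Over all probes, 3499 were called between double null and wild type, against 9015 with median centring, 8090 with array weights, 2273 with the covariate, 1640 with the filter on all arrays and 0 within slide 1. Between double null and MuRF1 het MuRF2 null it was 4276, against 4596 in the Cy5 channel alone and 3327 with the covariate. Between the het groups it was 1444, against 2182 and 1757.

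Replicate numbers did not pair the arrays: same-number correlations ran from -0.60 to 0.35, and in no comparison were all over 0.1. With the number as a replicate block the counts were 2, 0, 0, 0, 3 and 3, Tnnt2 A_51_P338262 between the het groups having a limma adjusted p of 0.0629, and 3077 probes were called between double null and wild type.

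With median centring, the number of the 17 differences above 0 went, in the same order without double null against MuRF1 null MuRF2 het, from 13 to 0, 16 to 0, 11 to 2, 13 to 2 and 14 to 2, and with the covariate from 13 to 2, 16 to 7, 11 to 13, 13 to 1 and 14 to 4. Only the probes whose sign turned and which passed the threshold in either fit are named next; others turned without a call. With median centring, they were in double null against wild type Tnnt2 A_51_P338262 (-1.67), Tnnt3 (-0.85 by A_52_P622418, -0.92 by A_51_P345699), Tnni1 A_51_P435704 (-0.21), Tnnc1 (-0.84), Tpm1 (-1.69 by A_51_P325173, -0.88 by A_52_P44949) and Tpm2 (-0.98 by A_52_P418477, -0.88 by A_52_P315976). In MuRF1 null MuRF2 het against wild type they were Tnnt2 A_51_P338262 (-1.42), Tnnt3 (-0.81 and -0.78), Tnni2 (-0.73), Tnni3 (-1.13 and -1.03), Tnnc2 (-0.77), Tpm1 A_52_P44949 (-0.87) and Tpm2 (-0.97 and -0.85). They were Tnni1 A_51_P435704 (-0.29) in MuRF1 het MuRF2 null against wild type, Tnnc1 (-0.12) in double null against MuRF1 het MuRF2 null, and between the het groups Tnnt2 A_51_P338262 (-0.45), Tnni3 (-0.31 and -0.12) and Tnnc1 (-0.34). In the Cy5 channel alone they were Tnnt2 A_51_P338262 in double null against wild type (-0.83), Tpm1 A_52_P44949 in MuRF1 het MuRF2 null against wild type (0.49), in double null against MuRF1 het MuRF2 null Tnnt2 A_51_P338262 (-1.0), Tnni3 (-1.17 and -0.70), Tpm1 A_52_P44949 (-0.34) and Tpm2 A_52_P418477 (-0.29), and between the het groups Tnnt2 A_51_P338262 (-0.39), Tnni3 A_52_P563123 (-0.32) and Tpm1 A_52_P44949 (-0.38). With the covariate they were Tnnt2 A_51_P338262 in double null against wild type (-0.42), in double null against MuRF1 het MuRF2 null Tnnt3 (-0.75 and -0.72), Tnni2 (-0.87), Tnni3 A_52_P563123 (-0.36), Tnnc2 (-0.96) and Tpm2 (-0.39 and -0.54), and between the het groups Tnnt3 (-0.65 and -0.51), Tnni2 (-0.84), Tnnc2 (-0.97) and Tpm2 (-0.33 and -0.44). Tnnt3 A_51_P345699 turned in double null against MuRF1 het MuRF2 null with array weights (-0.27) and without the 2 dimmest arrays (-0.28).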
